A study of Mus musculus with 36 samples.

Results

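The miR-26 and miR-101 families are small RNAs known for pairing with the 3′ UTR of the Ezh2 mRNA, and their 4 dominant mature products were followed in the mouse prostate. The members were taken by name: mmu-miR-26a-5p, mmu-miR-26b-5p, mmu-miR-101a-3p and mmu-miR-101b-3p, which are 4 of the 1963 miRNAs listed for every library. All 4 were among the 298 miRNAs with a mean of at least 10 RPM (reads of a miRNA per 1000000 miRNA reads of the library). The rule uses their names and none of the measured values.

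Small RNA was sequenced from the ventral and lateral prostate lobes of male mice of a strain labelled C56NL/6N, in 36 libraries that form 12 groups of 3. WT mice carried intact ELAC2 (ELAC2+/+), the gene of the nuclease that trims the 3′ ends of precursor tRNAs. KO mice (ELAC2-/-) lost a loxP-flanked exon through Cre driven by the probasin promoter (Pb-Cre), so the deletion was directed to the prostate, whose stroma and blood cells would keep the gene. A537T mice carried a point mutation of ELAC2 made with CRISPR-Cas9 on both alleles in the whole body. Each genotype was taken with and without the heterozygous TRAMP transgene, the SV40 large-T and small-t antigens under the probasin promoter in prostatic epithelium, at 10 and at 30 weeks of age. The groups are called WT, KO, A537T, WT-TRAMP, KO-TRAMP and A537T-TRAMP. The file headers give a library number and the names of the tables that hold it, and the group of each library rests on these names, which call the A537T line only a mutant. ELAC2 mRNA was not measured in these libraries and could not check the labels.

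Libraries held 655455 miRNA reads (library 35, A537T at 10 weeks) or 4544257 to 21870210 reads (the other 35). The epithelial miRNAs of the miR-200 family, miR-205-5p and miR-375-3p made up 3.84% to 10.3% of reads, with all 7 detected in all 36 libraries. Skeletal muscle miRNAs (miR-1a-3p, the miR-133 family, miR-206-3p, miR-208b-3p and miR-499-5p) made up 9.71% to 30.6% of reads in WT at 10 weeks, 3.72% to 13.7% in A537T at 10 weeks and between 0.734% and 6.49% in the KO libraries of that age. The TRAMP groups at 10 weeks held 0.218% to 3.09%, and all groups at 30 weeks held 0.187% to 0.936%. Of these 6 markers 4 were detected in all 36 libraries. Library 30 (WT at 10 weeks) had the highest muscle share and library 35 the lowest depth, and counts of calls are also given without both. The labels do not say more of the replicates than that they are separate samples, and the paper describes its miRNA data as from 3 mice of each line and age. The p-values measure the spread between these libraries.

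Ezh2 is the methyltransferase of Polycomb repressive complex 2, which methylates histone H3 and keeps developmental genes silent, and high Ezh2 is a known mark of aggressive prostate cancer. A miRNA guides Argonaute to mRNAs by pairing of its seed (bases 2 to 8) with the 3′ UTR, and the mRNA is then translated less or degraded. Loss of miR-101 is known to raise Ezh2 in human prostate cancer, and miR-26a is known to be repressed by Myc and to repress Ezh2.

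The mature sequences are shown because the members differ little, which bears on how their reads can be told apart and on which site each could pair with. They are from RefSeq (GRCm38.p6), written 5′ to 3′ with the seed in capitals:
mmu-miR-26a-5p: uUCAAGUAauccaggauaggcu
mmu-miR-26b-5p: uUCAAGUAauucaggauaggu
mmu-miR-101a-3p: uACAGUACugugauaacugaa
mmu-miR-101b-3p: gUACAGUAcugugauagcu

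The miR-26 products share the seed UCAAGUA and differ over 21 bases at C11U and C21U, counted from the 5′ end of miR-26a. The RefSeq mature miR-101b-3p begins 1 base upstream of miR-101a-3p, so their seeds are offset by 1 base (UACAGUA and ACAGUAC), and they differ at 1 of 18 overlapping bases, A16G counted from the 5′ end of miR-101a. No other mature mouse miRNA in the table holds any of these 3 seeds. miR-26a-5p is made from both Mir26a-1 (chr9:119031811-119031832, plus strand) and Mir26a-2 (chr10:126995543-126995564, plus strand), and its reads from both genes cannot be told apart. miR-26b-5p lies at chr1:74394324-74394344 (plus strand), miR-101a-3p at chr4:101346957-101346977 (minus strand) and miR-101b-3p at chr19:29135338-29135356 (plus strand). The 3 miR-26 hairpins lie in introns of genes of small C-terminal domain phosphatases, Mir26a-1 in Ctdspl, Mir26a-2 in Ctdsp2 and Mir26b in Ctdsp1. The Mir101b hairpin lies in an intron of Rcl1, and the Mir101a hairpin overlaps an exon of the long non-coding RNA E130102H24Rik (GENCODE).

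The longest annotated 3′ UTR of Ezh2 (402 bases, chr6, minus strand, GRCm38) holds the complements of all 3 seeds, shown in capitals on the mRNA strand because they are what ties these miRNAs to Ezh2:
miR-101a, first match: aaccttgaGTACTGTgg
miR-101a, second match: tttgcaaaGTACTGTaa
miR-101b: ttgcaaagTACTGTAac
miR-26a and miR-26b: ataaagaaTACTTGAac

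The miR-101a complement GTACTGT was found at bases 59 to 65 (chr6:47530476-47530482) and 114 to 120 (chr6:47530421-47530427) of the UTR. The miR-101b complement TACTGTA at bases 115 to 121 (chr6:47530420-47530426) overlaps the second of these. The miR-26 complement TACTTGA lies at bases 248 to 254 (chr6:47530287-47530293). Over the first 402 bases of 15298 mouse 3′ UTRs, 2.71% held GTACTGT, 3.33% held TACTGTA and 2.85% held TACTTGA on the mRNA strand. A match is a description of letters, and neither Ezh2 mRNA nor Ezh2 protein was measured in these libraries.

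miR-26a-5p was among the most abundant miRNAs of every library, ranking 3 to 7, with 28085 to 55330 RPM. miR-26b-5p ranked 19 to 35 with 3842 to 9343 RPM, miR-101a-3p 41 to 79 with 506 to 2401 RPM and miR-101b-3p 59 to 89 with 381 to 1263 RPM. The shallowest library still held 417 reads of miR-101b-3p and 658 reads of miR-101a-3p. Ligation and amplification favour some small RNAs over others, so levels of different miRNAs are not amounts of molecules. Reads with a mismatch can also be counted for the near-identical partner, so the split within each family is uncertain.

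The order of the group means differed between the families. miR-26a-5p was highest in WT-TRAMP at 10 weeks (50803 ± 5288 RPM, mean ± SD, n = 3 here and for all groups) and lowest in KO at 10 weeks (33439 ± 4237 RPM), a 1.52-fold range. miR-26b-5p was also highest in WT-TRAMP at 10 weeks (8257 ± 691 RPM), and lowest in WT at 10 weeks (4991 ± 594 RPM), 1.65-fold apart. miR-101a-3p was highest in A537T-TRAMP at 30 weeks (2241 ± 257 RPM) and lowest in WT at 30 weeks (866 ± 244 RPM), a 2.59-fold range. miR-101b-3p was highest in the same A537T-TRAMP group (1032 ± 206 RPM) and lowest in KO at 30 weeks (493 ± 114 RPM), 2.09-fold apart. Ordered by mean, the 12 groups formed 11 pairs of neighbours, and the libraries of neighbours overlapped in 11 pairs for miR-26a-5p and in 10 pairs for each of the other 3 members. The exceptions were A537T-TRAMP at 30 weeks above KO at 10 weeks for miR-26b-5p, KO-TRAMP at 30 weeks above KO at 10 weeks for miR-101a-3p and KO-TRAMP above WT-TRAMP at 30 weeks for miR-101b-3p.

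**Figure D1:**
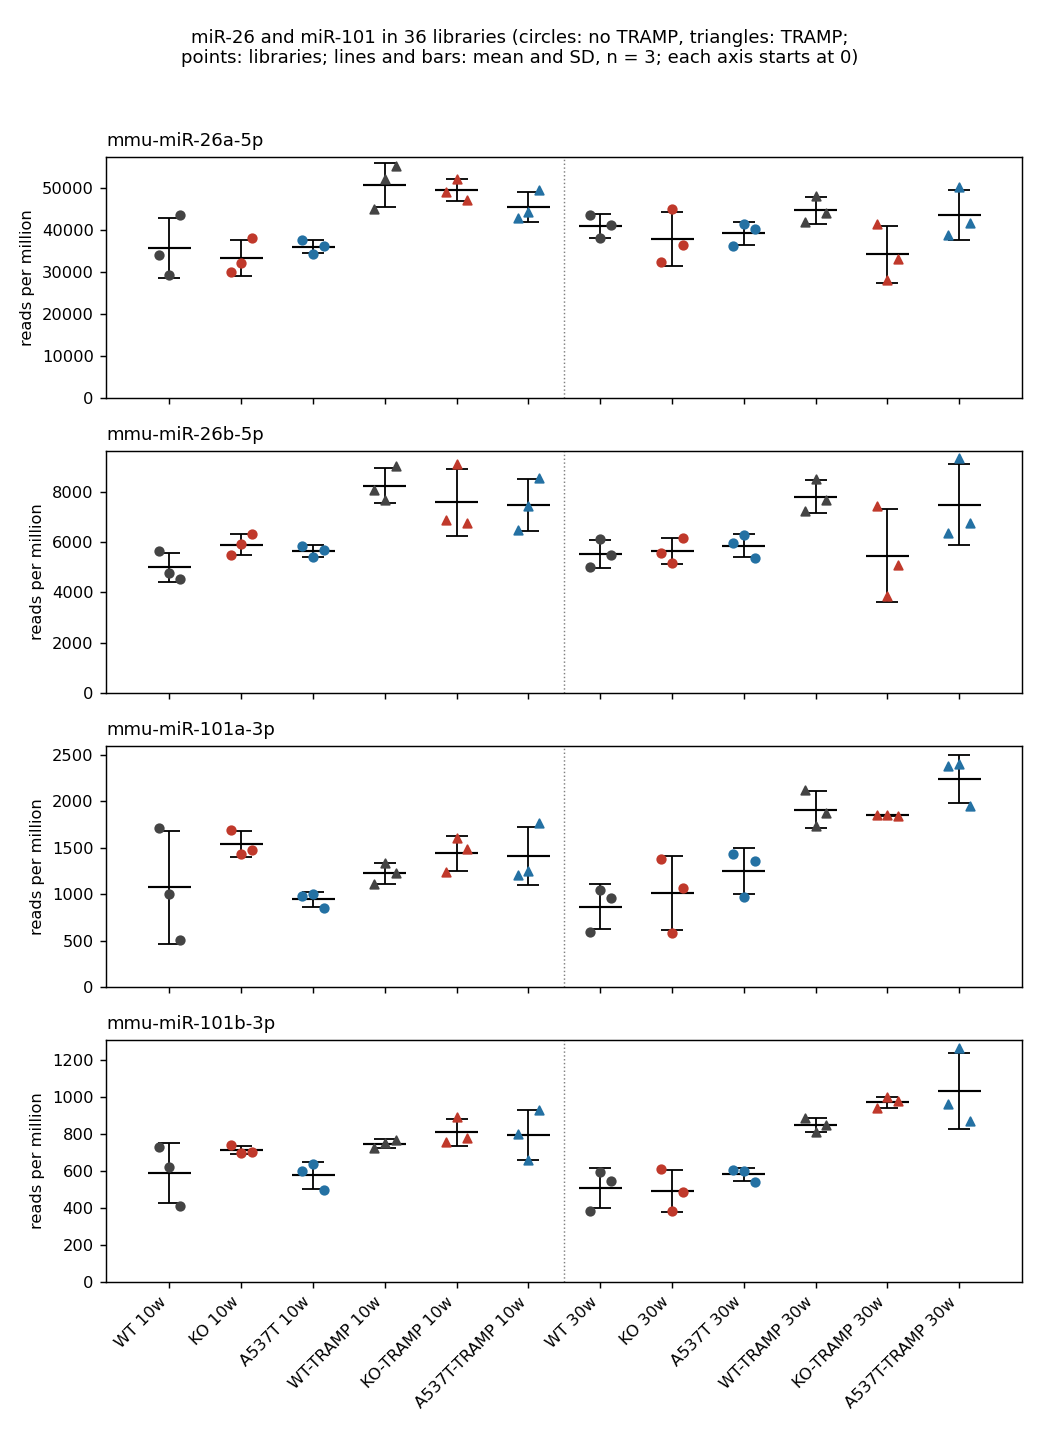
RPM of miR-26a-5p, miR-26b-5p, miR-101a-3p and miR-101b-3p in each of the 36 libraries, by group (circles without and triangles with TRAMP, lines and bars mean and SD, n = 3). The highest group mean was that of WT-TRAMP at 10 weeks for both miR-26 products and that of A537T-TRAMP at 30 weeks for both miR-101 products.

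TRAMP carriers were compared with mice of the same ELAC2 genotype and age, which asks how the tumour-forming transgene goes with miRNA levels. The test was limma's moderated test on log2(RPM + 1) with Benjamini-Hochberg adjustment over 298 miRNAs at 0.05. Of 24 tests (4 members in 6 comparisons) 9 passed, all 9 with higher levels in TRAMP. In the 6 comparisons 15.1% to 47.7% of all miRNAs were called, so frequent calls were general. miR-26 products made up 4 of the 9 calls, 3 of them at 10 weeks, and miR-101 products made up 5, all 5 at 30 weeks. This split by age depended on the scaling. With median-ratio factors, which centre each library on its typical miRNA, miR-101 products were also called at 10 weeks in KO and A537T. Over all tests 21 of 24 differences were positive, and the 3 TRAMP and 3 other libraries did not overlap in 17 of 24. Over all 298 miRNAs the libraries did not overlap in 48.3% of tests in these 6 comparisons, in either direction, so frequent separation was general. Of these 1788 tests 432 separated with higher and 431 with lower levels in TRAMP, while the 17 of the members were all higher. The median log2 difference over all miRNAs lay between -0.40 and 0.25 in the 6 comparisons. In bulk tissue, more cells of a type and more RNA per cell cannot be told apart.

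At 10 weeks miR-26a-5p was measured at 44990, 52088 and 55330 RPM in WT-TRAMP against 34141, 29434 and 43539 RPM in WT. miR-26b-5p was measured at 8072, 7677 and 9022 RPM in WT-TRAMP and 5664, 4773 and 4537 RPM in WT. Every WT-TRAMP library was above every WT library for both, though the highest WT library for miR-26a-5p came close to the lowest WT-TRAMP library. miR-26a-5p rose by 0.52 ± 0.151 on the log2 scale (± SE, 1.44-fold, adjusted p = 0.00645 with limma), and miR-26b-5p by 0.73 ± 0.178 (1.66-fold, adjusted p = 0.00155). In the same comparison miR-101a-3p was measured at 1113, 1338 and 1230 RPM in WT-TRAMP against 1716, 1004 and 506 RPM in WT, and its log2 difference of 0.36 (95% interval -0.26 to 0.97) did not pass. The log2 difference of miR-101b-3p, 0.39 (-0.0021 to 0.78), did not pass either, and the libraries of both miR-101 products overlapped. These were 2 of 4 members called, where 40.9% of all 298 miRNAs were called and 46.6% did not overlap. The WT libraries of this comparison carried the 9.71% to 30.6% of muscle reads given above. With muscle miRNAs taken out of the total, the log2 differences were 0.20 (adjusted p = 0.354) for miR-26a-5p and 0.41 (adjusted p = 0.0604) for miR-26b-5p, so neither call was kept, and miR-26a-5p was also not called with median-ratio factors (0.42, adjusted p = 0.104), TMM factors (0.41, adjusted p = 0.135), edgeR (0.42, adjusted p = 0.0579), DESeq2 (0.36, adjusted p = 0.171), only the groups compared (adjusted p = 0.0839) or without library 29 (0.39, adjusted p = 0.0591). Without library 28, the WT library highest in miR-101, miR-101a-3p (0.78, adjusted p = 0.0325) and miR-101b-3p (0.57, adjusted p = 0.0291) were called.

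In KO-TRAMP at 10 weeks miR-26a-5p was measured at 49068, 52313 and 47218 RPM, against 29975, 32180 and 38163 RPM in KO. The lowest KO-TRAMP library was above the highest KO library, and miR-26a-5p rose by 0.57 ± 0.151 (log2, 1.49-fold, adjusted p = 0.00377). miR-26b-5p was measured at 6902, 9124 and 6751 RPM against 5488, 5911 and 6323 RPM, without overlap, with a log2 difference of 0.35 (adjusted p = 0.0993). miR-101b-3p was measured at 755, 893 and 779 RPM against 738, 699 and 704 RPM, also without overlap, with a log2 difference of 0.18 (adjusted p = 0.431). For miR-101a-3p the log2 difference was -0.10 (adjusted p = 0.790) and the libraries overlapped. Here 1 of 4 members was called where 47.7% of all miRNAs were called, and 3 of 4 did not overlap where 65.4% of all miRNAs did not. The median log2 difference of the 298 miRNAs was -0.40 in this comparison and -0.10 with median-ratio factors, which centre each library on its typical miRNA, and with those factors miR-26b-5p (0.66, adjusted p = 0.00175) and miR-101b-3p (0.48, adjusted p = 0.00443) were also called.

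In A537T-TRAMP at 10 weeks none of the 4 members was called, where 39.3% of all miRNAs were called. The 3 libraries with and the 3 without TRAMP did not overlap for any of the 4, and neither did they for 54.4% of all miRNAs. miR-26a-5p was measured at 42919, 44235 and 49662 RPM against 37613, 34431 and 36187 RPM in A537T. miR-101a-3p was measured at 1208, 1253 and 1767 RPM against 984, 1004 and 849 RPM, and miR-101b-3p at 798, 658 and 930 RPM against 598, 636 and 496 RPM. The log2 differences were 0.34 for miR-26a-5p, 0.40 for miR-26b-5p, 0.56 for miR-101a-3p and 0.46 for miR-101b-3p, with adjusted p from 0.0574 to 0.135 and unadjusted p under 0.05 for 3 of the 4. All 4 were called with median-ratio factors (0.52, 0.58, 0.74 and 0.64, adjusted p from 0.000412 to 0.0487), and so were they with trimmed-mean (TMM) factors, edgeR and DESeq2. miR-101b-3p was also called without library 5 (0.59, adjusted p = 0.0317).

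At 30 weeks the miR-101 products stood highest in the TRAMP mice of every ELAC2 genotype. miR-101a-3p was measured at 2127, 1732 and 1875 RPM in WT-TRAMP against 589, 1046 and 962 RPM in WT, and miR-101b-3p at 888, 810 and 847 RPM against 385, 592 and 547 RPM. The lowest WT-TRAMP library was well above the highest WT library for both. miR-101a-3p rose by 1.18 ± 0.299 (log2, 2.27-fold, adjusted p = 0.00297) and miR-101b-3p by 0.76 ± 0.191 (1.69-fold, adjusted p = 0.00273). miR-26b-5p was measured at 7228, 8533 and 7673 RPM in WT-TRAMP against 5018, 6109 and 5481 RPM, without overlap, and rose by 0.50 ± 0.178 (1.41-fold, adjusted p = 0.0307). The call of miR-26b-5p was lost on leaving out library 11, 12, 19 or 21 in turn (adjusted p from 0.0681 to 0.106). For miR-26a-5p the libraries overlapped and the log2 difference was 0.13 (-0.18 to 0.44). These were 3 of 4 members called, where 33.6% of all miRNAs were called, and 3 of 4 without overlap, where 49.7% of all miRNAs had none.

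In KO-TRAMP at 30 weeks miR-101a-3p was measured at 1852, 1856 and 1839 RPM, close to each other, against 1374, 585 and 1070 RPM in KO. miR-101b-3p was measured at 938, 1000.1 and 977 RPM against 610, 381 and 488 RPM. Neither product overlapped between the groups. miR-101a-3p rose by 0.96 ± 0.299 (log2, 1.94-fold, adjusted p = 0.0126) and miR-101b-3p by 1.00 ± 0.191 (2.00-fold, adjusted p = 0.000163). Library 23, the KO library at 585 RPM, mattered for miR-101a-3p, whose difference was 0.61 (adjusted p = 0.120) without it. miR-26a-5p was measured at 41434, 28085 and 33215 RPM in KO-TRAMP and 32342, 45034 and 36447 RPM in KO, and miR-26b-5p at 7461, 3842 and 5101 RPM against 5578, 5154 and 6178 RPM. The miR-26 products overlapped, with log2 differences of -0.15 (adjusted p = 0.466) and -0.09 (adjusted p = 0.685). Here 2 of 4 members were called, where 36.2% of all miRNAs were called, and 42.3% did not overlap.

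In A537T-TRAMP at 30 weeks miR-101b-3p was measured at 963, 1263 and 869 RPM against 606, 598 and 542 RPM in A537T, and rose by 0.81 ± 0.191 (log2, 1.75-fold, adjusted p = 0.0029). miR-101a-3p was measured at 2377, 2401 and 1945 RPM against 1436, 966 and 1354 RPM. The groups did not overlap, but its log2 difference of 0.85 (95% interval 0.24 to 1.47, adjusted p = 0.0523) lay just outside the threshold, and it passed in 6 of 10 other settings, with 0.74 to 0.85 and adjusted p from 0.0156 to 0.0492. miR-26b-5p was measured at 6377, 9343 and 6768 RPM against 5962, 6268 and 5358 RPM, without overlap, and its log2 difference of 0.34 did not pass (adjusted p = 0.234). miR-26a-5p had a log2 difference of 0.14 (adjusted p = 0.589) with overlapping libraries. Here 1 of 4 members was called, where 15.1% of all miRNAs were called, and 3 of 4 did not overlap, where 31.2% of all miRNAs did not.

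**Figure D2:**
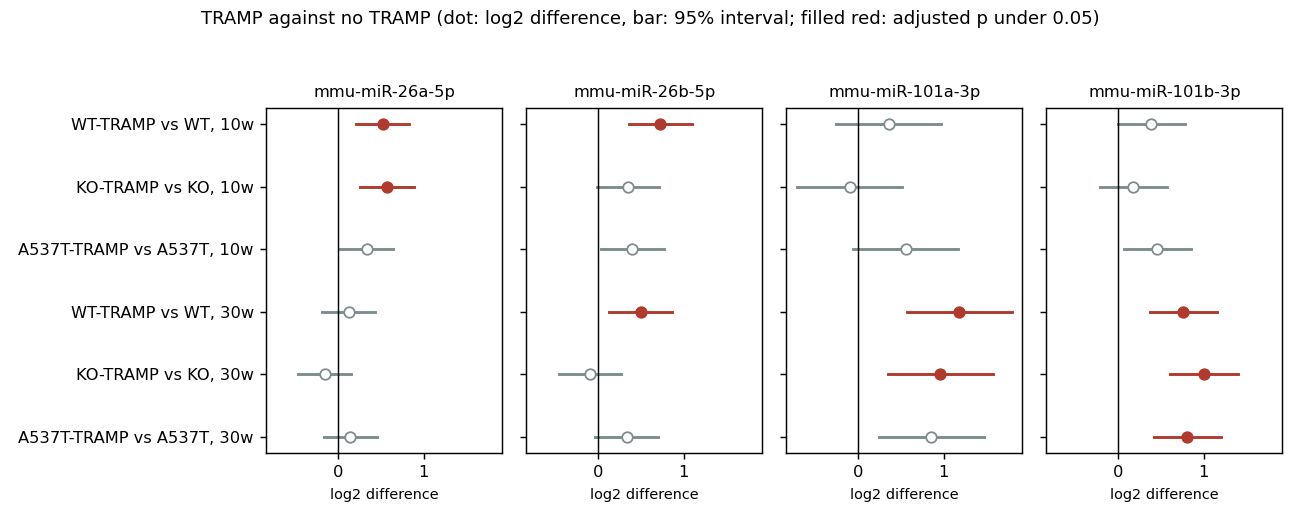
Log2 difference between TRAMP and no TRAMP with its 95% interval (x axis) for each member in each genotype and age, filled red where the adjusted p was under 0.05. In this fit the miR-26 calls lie at 10 weeks, except miR-26b-5p in WT at 30 weeks, and all miR-101 calls lie at 30 weeks. With median-ratio factors miR-101b-3p in KO and both miR-101 products in A537T were also called at 10 weeks.

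Over the 3 genotypes together, all 9 TRAMP libraries at 30 weeks lay above all 9 libraries without TRAMP for miR-101a-3p (1732 to 2401 against 585 to 1436 RPM) and for miR-101b-3p (810 to 1263 against 381 to 610 RPM). At 10 weeks 1 of 9 TRAMP libraries did so for miR-101a-3p and 7 of 9 for miR-101b-3p. The order was the other way for miR-26, with 8 of 9 TRAMP libraries above all others for miR-26a-5p and 9 of 9 for miR-26b-5p at 10 weeks, against 2 of 9 and 7 of 9 at 30 weeks. These counts pool libraries of 3 genotypes and are a description. At 10 weeks skeletal muscle reads, which enter the total, made up 0.734% to 30.6% without TRAMP and 0.218% to 3.09% with it. Library 30, the highest without TRAMP for miR-26a-5p at 10 weeks (43539 RPM), held the 30.6%. The counts were not repeated with muscle miRNAs taken out of the total, so they hold only for RPM of all miRNA reads. They were not set beside the same counts for other miRNAs, so they do not show whether such separation was particular to the members. Within single genotypes separation was frequent over all miRNAs, as given above.

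Read shares of miRNAs typical of cell types were also set beside each other with and without TRAMP, and several of their ranges overlapped. Leukocyte miRNAs (miR-142a, miR-150-5p, miR-223-3p and miR-155-5p, all 5 products detected in every library) made up 0.0731% to 0.170% of reads in TRAMP at 30 weeks and 0.0234% to 0.0634% without TRAMP, with no overlap, and 0.0275% to 0.0731% against 0.0236% to 0.0462% at 10 weeks. Red cell miRNAs, all 3 detected in every library, made up 0.0137% to 0.0615% in TRAMP at 10 weeks against 0.105% to 0.193% without it, and 0.0165% to 0.0611% against 0.0320% to 0.151% at 30 weeks. miRNAs of smooth muscle and fibroblasts (miR-143-3p, miR-145a-5p, miR-199-3p and miR-214-3p, all 4 detected in every library) made up 7.50% to 22.6% in TRAMP and 7.08% to 39.9% without it at 10 weeks, and 6.15% to 34.2% against 12.7% to 29.7% at 30 weeks. miR-143-3p had a mean of 182650 RPM over all libraries, against 7648, 6303 and 125 RPM for miR-145a-5p, miR-199-3p and miR-214-3p. The smooth muscle and fibroblast share is thus mainly that of miR-143-3p. The epithelial miRNAs made up 6.33% to 9.29% against 3.84% to 6.88% at 10 weeks, and 6.14% to 9.24% against 6.11% to 10.3% at 30 weeks. The numbers of cells were not measured, and the part of these cell types in the TRAMP differences was not tested.

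The 3 lowest miR-101a-3p values of the series fell in libraries that were the lowest of their own group in smooth muscle and fibroblast miRNAs. The library at 506 RPM (library 30, WT at 10 weeks) held 7.08% of such reads, where the other WT libraries at 10 weeks, at 1716 and 1004 RPM, held 30.2% and 15.4%. The library at 585 RPM (library 23, KO at 30 weeks) held 12.7%, against 29.7% and 27.3% in its group, and the WT library at 589 RPM (library 19) held 13.3%, against 24.2% and 20.7%. Other marker shares also stood out. Libraries 19 and 23 were the highest of their groups in epithelial miRNAs, at 10.3% and 9.26%. They were the lowest in red cell miRNAs, at 0.0324% and 0.0320%. Library 30 was neither, at 5.35% and 0.193%. Libraries 23 and 30 were the highest of their groups in skeletal muscle miRNAs (0.820% and 30.6%), and library 19 the lowest (0.388%). In leukocyte miRNAs libraries 19 and 30 were the lowest of their groups and library 23 the highest. In 8 of the 12 groups the library lowest in these miRNAs was also the lowest in miR-101a-3p, in 5 of 6 groups without and 3 of 6 with TRAMP. KO-TRAMP at 30 weeks was not among them, where libraries with 6.15%, 34.2% and 24.5% had miR-101a-3p at 1852, 1856 and 1839 RPM. For miR-26a-5p those same 3 libraries stood at 41434, 28085 and 33215 RPM, highest where the smooth muscle and fibroblast share was lowest. Across groups a low share did not go with low miR-101a-3p throughout. Library 14 (A537T-TRAMP at 30 weeks) held 9.20% of such reads and the highest miR-101a-3p value of the series, 2401 RPM. The count of 8 of 12 groups was not set beside that of other miRNAs or of the other marker lists. The part of smooth muscle, fibroblasts or any other cell type in the values was not tested.

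The TRAMP effect at 30 weeks minus that at 10 weeks was tested as an interaction in each genotype. In KO it was -0.73 (log2, 95% interval -1.16 to -0.29, adjusted p = 0.0157) for miR-26a-5p and 0.83 (0.27 to 1.38, adjusted p = 0.0228) for miR-101b-3p, so the effect on miR-26a-5p was smaller and that on miR-101b-3p larger at 30 weeks. The interaction of miR-101a-3p in KO was 1.06 (adjusted p = 0.0546) and that of miR-26b-5p was -0.44 (adjusted p = 0.171). These were 2 of 4 members, where 31.2% of all miRNAs passed this interaction. In WT none of 4 passed, where 12.4% of miRNAs did, with 0.82 (adjusted p = 0.180) for miR-101a-3p, 0.37 for miR-101b-3p, -0.40 for miR-26a-5p and -0.23 for miR-26b-5p. In A537T none of 4 passed, where 1.68% of miRNAs did, and the values were 0.30, 0.35, -0.19 and -0.06 in the same order. At an unadjusted p of 0.05 limma passed 0 of 4 in WT and 0 of 4 in A537T. edgeR and DESeq2 each called 2 of 4 in WT, both miR-101 products, and 0 of 4 in A537T. Without library 30 the value of miR-101a-3p in WT was 1.28 (adjusted p = 0.0311). The WT libraries at 10 weeks held 9.71% to 30.6% of muscle reads. With muscle miRNAs taken out of the total, limma called miR-101a-3p in WT (1.14, adjusted p = 0.0488) and in KO (1.08, adjusted p = 0.0324).

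In KO the interaction of miR-101b-3p was 0.31 (adjusted p = 0.204) with median-ratio and 0.33 (adjusted p = 0.243) with TMM factors, where the median of all miRNAs was closer to 0, and it was lost without library 7, 17, 18 or 23 (adjusted p from 0.0529 to 0.0827). That of miR-26a-5p was lost without library 17 or 23 (-0.59 and -0.60, adjusted p = 0.0540 and 0.0554), and that of miR-26b-5p was called with median-ratio factors (-0.97, adjusted p = 0.00392) and without library 16 (-0.69, adjusted p = 0.0152). That of miR-101a-3p was called without library 22 (1.32, adjusted p = 0.0242). The TRAMP effect in KO or A537T minus that in WT at the same age passed for 0 of 16 tests with limma, for 1 at an unadjusted p of 0.05, and for 1 each with edgeR and DESeq2. The lowest adjusted p was 0.147, for miR-26b-5p in KO at 30 weeks (-0.59), and that test passed with median-ratio factors (-0.87, adjusted p = 0.0112) and without library 16 (-0.84, adjusted p = 0.00804). Over all miRNAs these 4 interactions called 0% (KO at 10 weeks), 0% (A537T at 10 weeks), 8.72% (KO at 30 weeks) and 0% (A537T at 30 weeks).

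The ratio of miR-26 reads to miR-101 reads puts the families beside each other within each library and does not depend on the total. In TRAMP mice it was 29.9 ± 1.99 in WT, 25.5 ± 2.26 in KO and 24.4 ± 2.74 in A537T at 10 weeks. At 30 weeks it was 19.2 ± 3.03, 14.1 ± 3.20 and 15.7 ± 1.90 in the same order. All TRAMP libraries at 10 weeks lay between 21.6 and 32.2, and those at 30 weeks between 11.2 and 22.3. Without TRAMP the ratio spread more, from 14.6 to 52.5 at 10 weeks and from 19.1 to 52.0 at 30 weeks, and 8 of 9 TRAMP libraries at 30 weeks lay below all 9 without TRAMP. The ratio was not tested.

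**Figure D3:**
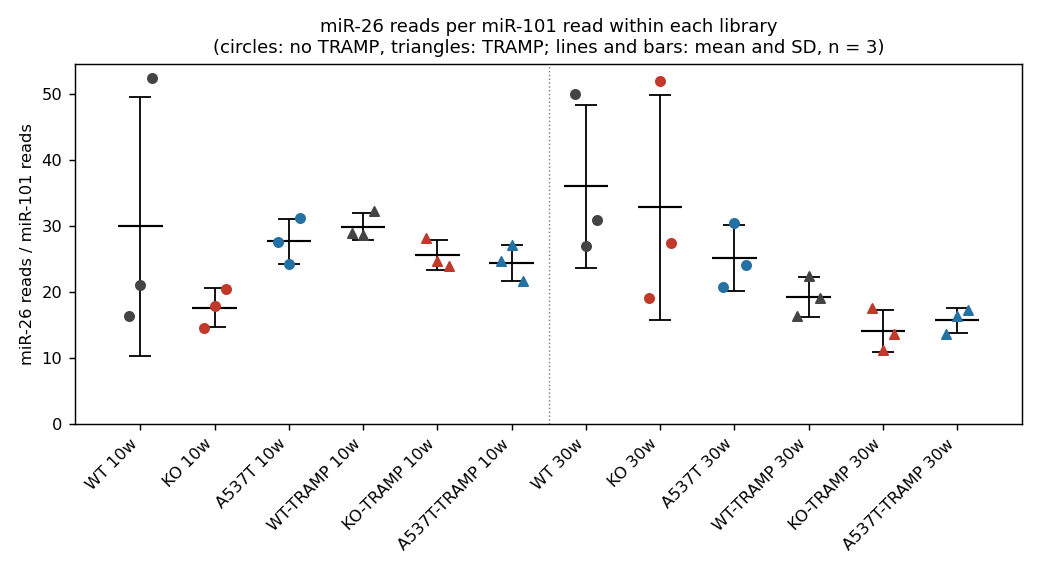
miR-26 reads (miR-26a-5p plus miR-26b-5p) per miR-101 read (miR-101a-3p plus miR-101b-3p) in each library, by group (circles without and triangles with TRAMP, lines and bars mean and SD, n = 3). TRAMP libraries lay between 21.6 and 32.2 at 10 weeks and between 11.2 and 22.3 at 30 weeks, while libraries without TRAMP reached 52.5.

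Age was compared as 30 against 10 weeks within each of the 6 genotypes, with libraries that also entered the TRAMP comparisons. In TRAMP mice age cannot be told apart from tumour progression. Without TRAMP the skeletal muscle share also differed with age, at 0.734% to 30.6% at 10 weeks and 0.355% to 0.820% at 30 weeks. Of 24 tests 3 passed. In KO-TRAMP miR-26a-5p fell from 49533 ± 2579 to 34245 ± 6734 RPM (log2 difference -0.55 ± 0.151, adjusted p = 0.0138) and miR-26b-5p from 7592 ± 1328 to 5468 ± 1837 RPM (-0.51 ± 0.178, adjusted p = 0.0451), 2 of 4 members where 18.1% of miRNAs were called. Library 17 carried much of this, with -0.42 (adjusted p = 0.144) and -0.29 (adjusted p = 0.349) left without it. Both were also not called without library 18 (adjusted p = 0.0663 and 0.154), and miR-26b-5p was not called without library 7 or 8 (adjusted p = 0.0626 and 0.166). Library 17 had the highest smooth muscle and fibroblast share of the TRAMP libraries, 34.2%, and the part of this share in the values was not tested. In KO without TRAMP miR-101b-3p fell from 714 ± 21.3 to 493 ± 114 RPM (-0.56 ± 0.191, adjusted p = 0.045), 1 of 4 members where 15.4% of miRNAs were called. With median-ratio factors that value was -0.22 (adjusted p = 0.206), and it was not called without library 23, 24, 31, 32 or 33 (adjusted p from 0.0786 to 0.314). miR-101a-3p was called in KO without library 22 (-0.95, adjusted p = 0.0377).

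No member was called with age in WT (13.1% of miRNAs called), A537T (18.1%), WT-TRAMP (8.72%) or A537T-TRAMP (8.72%) with limma. Of these 16 tests, 1 in WT-TRAMP and 1 in A537T-TRAMP passed at an unadjusted p of 0.05, edgeR called 0 and DESeq2 1. miR-101a-3p was measured at 1227 ± 113 RPM at 10 weeks and 1911 ± 200 RPM at 30 weeks in WT-TRAMP, with no overlap and a log2 difference of 0.64 (adjusted p = 0.192), which passed with DESeq2 (0.68, adjusted p = 0.0393) and with limma on only the groups compared (adjusted p = 0.0107). In A537T-TRAMP it was measured at 1409 ± 311 and 2241 ± 257 RPM, also with no overlap, with a log2 difference of 0.68 (adjusted p = 0.171). Neither passed in the fit of all 36 libraries, and 45.6% of all miRNAs in WT-TRAMP and 26.5% in A537T-TRAMP did not overlap between the ages.

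The ELAC2 genotypes were compared with WT at each age, without and with TRAMP, which is the comparison the study was built on. The KO and A537T comparisons share their WT libraries. Of 32 tests 0 passed with limma at an adjusted p of 0.05, 3 passed at an unadjusted p of 0.05, as did 12.3% of the tests over all miRNAs, and the log2 differences lay between -0.56 and 0.68. edgeR's quasi-likelihood test and DESeq2 each called 1 of 32. The share of all miRNAs called was 5.7% for KO against WT at 10 weeks, 1.01% for KO against WT at 30 weeks, 4.03% for KO-TRAMP against WT-TRAMP at 30 weeks and 0% for KO-TRAMP against WT-TRAMP at 10 weeks. It was 0% in all 4 A537T comparisons. The 95% intervals reached from -0.93 to 1.29 over the 32 tests, so differences within that range are not shown to be absent.

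The member that came closest was miR-26b-5p in KO-TRAMP against WT-TRAMP at 30 weeks, measured at 7461, 3842 and 5101 RPM against 7228, 8533 and 7673 RPM. Libraries 17 and 18 were below every WT-TRAMP library and library 16 was not. The log2 difference was -0.56 (95% interval -0.93 to -0.20, adjusted p = 0.0706), and it was the 1 member value called with edgeR (-0.58, adjusted p = 0.0202), DESeq2 (-0.57, adjusted p = 0.00867), median-ratio factors (-0.62, adjusted p = 0.0183), TMM factors (-0.71, adjusted p = 0.0234) and a pseudocount of 10 RPM (-0.56, adjusted p = 0.0486). Without library 16 it was -0.82 (adjusted p = 0.00106 with limma). Library 16 held 6.15% of smooth muscle and fibroblast reads, against 34.2% and 24.5% in libraries 17 and 18 and 9.61% to 19.8% in WT-TRAMP. The part of this share in the difference was not tested.

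In the same comparison miR-26a-5p did not overlap, at 41434, 28085 and 33215 RPM against 41845, 48221 and 44223 RPM, with a log2 difference of -0.40 (-0.71 to -0.09, adjusted p = 0.107). Without library 16 it was -0.55 (adjusted p = 0.0120). miR-101b-3p did not overlap either, at 938, 1000.1 and 977 RPM against 888, 810 and 847 RPM, but the difference was small (0.20, adjusted p = 0.572), and 27.5% of all miRNAs did not overlap in this comparison. miR-101a-3p in KO against WT at 10 weeks was measured at 1697, 1439 and 1477 RPM against 1716, 1004 and 506 RPM, with overlap and a log2 difference of 0.68 (0.07 to 1.29, adjusted p = 0.160). It was 1.10 (adjusted p = 0.00848) without WT library 28, the WT library at 1716 RPM.

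**Figure D4:**
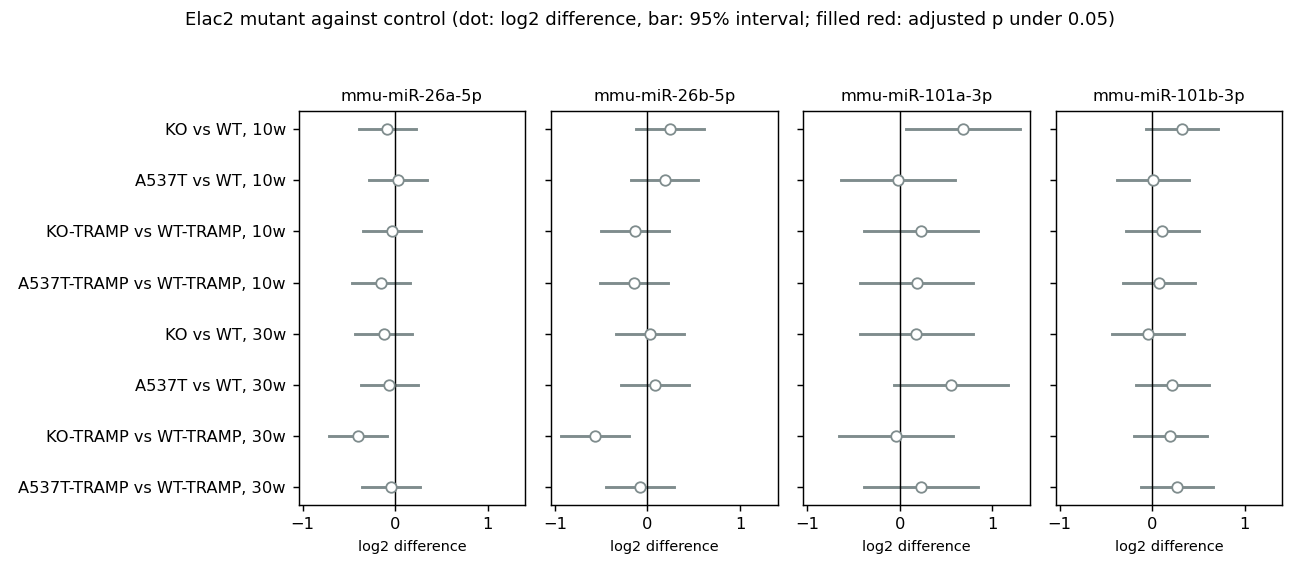
Log2 difference between ELAC2 mutant and WT mice with its 95% interval (x axis) for each member in the 8 comparisons of genotype. No point is filled, since no adjusted p was under 0.05, and the point estimates lie between -0.56 and 0.68.

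The other products of the same hairpins were rare beside the members. miR-26a-2-3p (mean 32.1 RPM) and miR-26b-3p (12.5 RPM) were abundant enough to test, and miR-26a-1-3p (2.78 RPM), miR-101a-5p (0.700 RPM), miR-101b-5p (0.0492 RPM, with reads in 16 libraries) and miR-101c (9.58 RPM) were not. RefSeq gives mmu-miR-101c: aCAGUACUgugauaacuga, with its seed in capitals, shown because its 19 bases lie within miR-101a-3p from base 2, so reads of either can be counted for the other. miR-26b-3p, cut from the same hairpin as miR-26b-5p, rose with TRAMP in WT at 10 weeks (7.66 ± 1.56 to 17.95 ± 2.08 RPM, log2 difference 1.14, adjusted p = 0.000442). It also rose in KO at 10 weeks (0.69, adjusted p = 0.0233) and in A537T at 30 weeks (0.88, adjusted p = 0.00952). Of all miRNAs 40.9%, 47.7% and 15.1% were called in these comparisons, in the same order. The WT libraries at 10 weeks carried 9.71% to 30.6% of muscle reads. The mean of miR-26b-3p over all libraries, 12.5 RPM, was near the filter of 10 RPM, which WT at 10 weeks did not reach. It was thus tested through groups with higher levels, and its calls lend no weight to those of the members. miR-26a-2-3p passed in none of the 6 TRAMP comparisons, with log2 differences from -0.22 to 0.57.

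Of 17 other miRNAs described in the literature as repressors of Ezh2, among them the let-7 family, 13 were abundant enough to test. None was called with limma in any of the 8 comparisons of ELAC2 genotype, and 13 of 104 tests passed at an unadjusted p of 0.05, beside 12.3% of the tests over all miRNAs. With TRAMP at 10 weeks 8 were higher and 0 lower in WT, 3 higher and 3 lower in KO, and 4 higher and 1 lower in A537T. Over all 298 miRNAs 74 were higher and 48 lower in WT, 45 higher and 97 lower in KO, and 43 higher and 74 lower in A537T, so the share called among the 13 was near that of all miRNAs in KO and A537T. At 30 weeks 1 was higher and 1 lower in WT, 1 higher and 2 lower in KO, and 1 higher and 1 lower in A537T, beside 50 higher and 50 lower, 75 higher and 33 lower, and 36 higher and 9 lower of all 298. The one that was higher in all 6 was miR-25-3p, a product of the Mcm7 host gene cluster, with log2 differences from 1.85 to 2.44, for instance 3587 ± 277 RPM in WT-TRAMP against 662 ± 68.5 RPM in WT at 10 weeks. let-7e-5p was lower with TRAMP at 30 weeks in WT (-0.68), KO (-0.66) and A537T (-0.57), and let-7c-5p was higher at 10 weeks in all 3 genotypes (1.09, 0.77 and 0.56). Members named here were picked after their values were seen. The median log2 difference of the 4 miR-26 and miR-101 products with TRAMP at 10 weeks was 0.46 in WT, 0.26 in KO and 0.43 in A537T, beside 0.03, -0.40 and -0.21 for all 298 miRNAs. At 30 weeks it was 0.63, 0.43 and 0.57, beside -0.12, 0.25 and -0.04.

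The members of a family resembled each other over the 12 group means of log2(RPM + 1) more than they resembled the other family. Pearson's r was 0.884 between miR-26a-5p and miR-26b-5p and 0.935 between miR-101a-3p and miR-101b-3p, and between families it lay at 0.185, 0.302, 0.507 and 0.565. Among 161 miRNAs with a mean of at least 100 RPM, those most like miR-26a-5p were let-7d-3p (r = 0.959), miR-204-5p (0.906) and miR-26b-5p. miR-26b-5p was most like let-7d-3p (0.895), miR-26a-5p and miR-148a-3p (0.832). For miR-101a-3p they were miR-101b-3p, miR-194-5p (0.913) and miR-20a-5p (0.906), and for miR-101b-3p they were miR-106b-5p (0.965), miR-16-5p (0.953) and miR-101a-3p. These coefficients describe 12 points that share the same libraries and totals. Within libraries, miR-26a-5p reads outnumbered miR-26b-5p reads 5.38 to 9.60 times and miR-101a-3p reads outnumbered miR-101b-3p reads 1.23 to 2.50 times.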

How the data were processed

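Per the study's methods and labels, paired small RNA reads (NovaSeq) were merged with BBMerge and quantified with mirDeep2 v0.1.3 against GRCm38 and miRBase 22.1. miRNAs of identical sequence were summed. The labels and the study name different library kits. The authors deposited 8 tables of 6 libraries each holding normalised counts (signal: reads divided by DESeq2 size factors, set within each table), and tables of their own fold changes, p-values and adjusted p-values, which were not used. Here each column was divided by its sum and multiplied by 1000000, which removes the size factor. Whole reads were recovered for 100% of 86454 values up to 1000 reads (within 0.001 read). The 12 control columns held in a pair of tables had identical reads and entered once.

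log2(RPM + 1) of 298 miRNAs with a mean of at least 10 RPM was fitted with limma 3.58.1 (variance trend, R 4.3.3) in 1 model of 12 group means. Tests were two-sided, adjusted by Benjamini-Hochberg within each of 20 comparisons and 7 interactions, with intervals of 95%. Fold changes on this scale understate changes of low miRNAs. Alternatives used edgeR 4.0.16 and DESeq2 1.42.0 on recovered reads, other scalings, filters and pseudocounts, and left out libraries. The fit was tested on simulated data. The members, marker lists and tests were chosen with earlier results of these data known. The 4 members are named always, their relatives and other Ezh2 repressors by count, and the 3 most alike miRNAs by Pearson's r.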

Additional observations from a re-analysis of the deposited data

Results flagged for a closer look

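Both results listed here are differences between the TRAMP effects at 30 and at 10 weeks in KO mice, picked because the interaction itself passed the test (limma, Benjamini-Hochberg over 298 miRNAs). For miR-101b-3p the effect was larger at 30 weeks by 0.83 on the log2 scale (adjusted p = 0.0228), with all 3 KO-TRAMP libraries above all 3 KO libraries at both ages. For miR-26a-5p the difference was -0.73 (adjusted p = 0.0157), with 3 of 3 KO-TRAMP libraries above all KO libraries at 10 weeks and overlapping libraries at 30 weeks. Over all 298 miRNAs 31.2% passed this interaction in KO, with a median of 0.44. Between KO-TRAMP and KO the libraries of 65.4% of all miRNAs did not overlap at 10 weeks, and 42.3% at 30 weeks. The call of miR-101b-3p was lost with median-ratio factors (0.31, adjusted p = 0.204), TMM factors, edgeR and DESeq2 (0.28, adjusted p = 0.215). That of miR-26a-5p was kept with these 4 and lost without library 17 or 23. The same interactions in WT were 0.37 (adjusted p = 0.341) and -0.40 (adjusted p = 0.201), and whether KO and WT differ in this was not tested.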

How the results depend on the processing

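No paired analysis was possible because the columns carry no replicate numbers. For genotype, 0 of 32 tests were called, 1 with median-ratio factors, TMM, a pseudocount of 10, edgeR or DESeq2, and 0 to 2 with 1 library left out. For TRAMP, 9 of 24 were called, 15 with median-ratio factors, edgeR or DESeq2, 14 with TMM, and 8 to 11 with 1 library left out. Of the 9, 8 were also called with each of these 4. For age, 3 of 24 were called, 1 with no filter, a filter at 100 RPM, no variance trend or only the groups compared, and 1 to 4 with 1 library left out. For interactions, 2 of 28 were called, 4 with median-ratio factors or without muscle miRNAs in the total, 5 with edgeR or DESeq2, 1 with no filter or only the groups compared, and 0 to 4 with 1 library left out. Leaving out libraries 30 and 35 together, chosen after seeing the data, gave 0, 11, 2 and 4 calls. The cause of these changes was not tested. Over 108 member values no called value changed sign. Of 1220 values under other settings 29 lost and 57 gained a call, and of 816 with 1 library left out 23 lost and 11 gained one. A further 149 values that were not called either way changed sign, 68 of them by 1 SE or more. With TRAMP, miR-101a-3p and miR-101b-3p in WT, miR-101b-3p in KO and A537T at 30 weeks and miR-26a-5p in KO at 10 weeks passed in all 16 alternatives. Depth was not varied, and the shallowest library held 417 reads of the rarest member.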
